A study of Mus musculus with 10 samples.

Results

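A sarcoma cell line that lacked Rb1 and Trp53 was compared with wild-type mesenchymal stem cells of mouse bone marrow (BM-MSC), gene by gene over the autosomes. The comparison rests on 4 of the 10 arrays of the study, 2 of the tumor line and 2 of wild-type BM-MSC, taken by their sample titles. Of 22596 genes with a detectable signal, 21511 were autosomal, and these are described here.

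The study looked at how far along the bone lineage a marrow or fat stromal cell was when both genes were removed, and at the kind of sarcoma it then gave. Its samples were cultures of FVB mouse cells from marrow or fat, measured as total RNA on single-colour Agilent arrays, in 5 groups of 2 cultures that the labels call independent. The tumor line came from a tumor that grew under the skin of NSG mice, an immunodeficient strain, after injection of marrow cells carrying RbloxP/loxPp53loxP/loxP alleles. These cells had spent 10 days in osteogenic medium and had then received Ad-CMV-Cre, an adenovirus in which the CMV promoter drives Cre, the recombinase that cuts out DNA between loxP sites. Some labels call the samples a tumor and others a cell line, and the source label names Rb-/-p53-/- mice where the protocol names floxed cells. Primed null BM-MSC, the cells of that kind before injection, are given beside some results. Wild-type BM-MSC were FVB cells with no deletion, and the labels name neither osteogenic priming nor virus for them, although the protocol speaks of infecting all cultures. All groups grew in the same medium with 10% serum and were taken at passages 2 to 5 during exponential growth, so the tumor line was also a culture when its RNA was collected. The 2 tumor line samples are 2 cultures of 1 line from 1 tumor. The p-values therefore measure the spread between duplicate cultures and not the spread between tumors.

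Rb1 encodes the retinoblastoma protein, which binds E2F transcription factors and keeps genes of DNA replication and mitosis low until a cell commits to divide. Trp53 encodes p53, which answers DNA damage and other stress by switching on genes that stop the cell cycle or cause cell death, among them Cdkn1a. Mesenchymal stem cells of the marrow are stromal cells that can form bone, cartilage and fat and that secrete matrix and factors for blood stem cells, and human osteosarcomas frequently carry defects of both genes.

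A level below is the log2 of the processed signal of a gene's brightest probe over the 75th percentile of its array, so that 0 marks a gene brighter than 3 in 4 spots, and it compares samples and not genes. A change is the log2 difference of the tumor line from wild-type BM-MSC ± SE from a limma fit to all 10 arrays, with 2 arrays against 2, and a gene is called when its Benjamini-Hochberg adjusted p is under 0.05. On the arrays 53.3% to 58.4% of spots were well above background, and the 2 arrays of each group had a Pearson r of 0.994 to 0.996, a value taken over genes, and genes are not independent of each other. Slide and group cannot be told apart in this comparison, because both tumor line arrays shared 1 slide and the other 8 arrays another. All 10 markers chosen for mesenchymal cells (Thy1, Ly6a, Cd44, Pdgfra, Pdgfrb, Nt5e, Eng, Col1a1, Col1a2 and Vim) were well above background on every array of both groups. Levels of vimentin (Vim), the intermediate filament of mesenchymal cells, were 7.40 and 7.31 in the tumor line and 7.41 and 7.38 in wild-type cells. Not all of the 10 kept their level, as Eng changed by -5.10 ± 0.07 and Nt5e by 4.71 ± 0.19.

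The targeted genes were low in the tumor line. Rb1 stood at -1.98 and -1.97 on the tumor line arrays, at 0.65 and 0.54 in primed null BM-MSC and at 1.90 and 1.92 in wild-type BM-MSC. Its change (-3.88 ± 0.05, adjusted p = 4.10e-08) left 6.77% of the wild-type signal. Trp53 stood at -7.56 and -7.59 in the tumor line, where its probe was well above background on neither array, at -0.89 and -1.11 in primed null cells and at 0.83 and 0.71 in wild-type cells. That allows only a bound, of at least 78.7-fold lower than wild type (adjusted p = 2.58e-07). The tumor line and wild-type arrays did not overlap for either gene. The same held for all 14655 autosomal genes called, 68.1% of those tested, so it adds no support. By the files' mm9 coordinates the probe of Rb1 sits at chromosome 14, 73595408 to 73595467, and that of Trp53 at chromosome 11, 69404204 to 69404263. Their place relative to the loxP sites was not determined here. In RNA from bulk cultures, fewer cells with a transcript and less of it per cell cannot be told apart.

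Inhibitors of the cell cycle moved in opposite directions. Cdkn2a, which encodes p16INK4a and p19ARF, the activators of the Rb and p53 pathways, stood at 6.94 and 6.77 in the tumor line, -2.26 and -1.82 in primed null cells and 3.17 and 3.08 in wild-type cells. Its neighbour Cdkn2b, which encodes p15INK4b, stood at 5.21 and 5.22 in the tumor line, -3.71 and -3.68 in primed null cells and 2.63 and 2.62 in wild-type cells. Both genes were highest in the tumor line and lowest in the primed null cells. Against wild type, Cdkn2a was 13.3-fold higher (3.73 ± 0.15, adjusted p = 2.10e-06) and Cdkn2b 6.01-fold (2.59 ± 0.04, adjusted p = 6.38e-08), and the other probe of each gene rose as well. Cdkn1c, the imprinted inhibitor p57, rose (4.93 ± 0.15, adjusted p = 6.95e-07), with levels of 4.50 and 4.47 in the tumor line and -0.66 and -0.24 in wild-type cells. Cdkn1a, which encodes p21 and is a direct target of p53, fell to 2.13 and 2.21, against 5.37 and 5.26 in wild-type cells (-3.14 ± 0.08, adjusted p = 3.69e-07), its 3 probes spanning -8.02 to -2.58. Over the 14 inhibitors and G1 cyclins tested, 9 rose and 3 fell. Cyclin D2 (Ccnd2, -1.28 ± 0.06) was among those that fell and cyclin E1 (Ccne1, 0.71 ± 0.07) among those that rose.

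**Figure D1:**
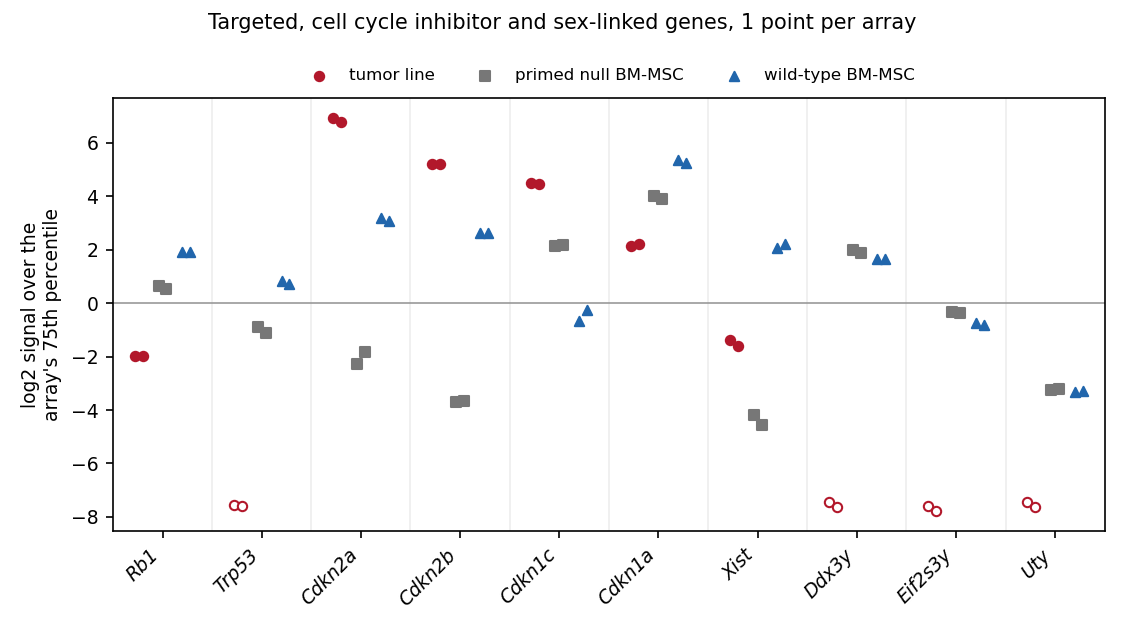
Log2 signal over the array's 75th percentile for the targeted genes, cell cycle inhibitors and sex-linked genes, with 1 point per array for the tumor line (circles), primed null BM-MSC (squares) and wild-type BM-MSC (triangles); open points are probes well above background on neither array of the group. Trp53 and the Y-linked Ddx3y, Eif2s3y and Uty were at the detection limit in the tumor line, while Cdkn2a and Cdkn2b were higher there than in both other groups.

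Across the autosomes the 2 kinds of cell differed widely and nearly evenly in both directions. Of 21511 autosomal genes, 14655 were called (68.1%), 7030 of them higher (32.7%) and 7625 lower (35.4%), and these shares are the background for every count below. The gene lists were chosen with earlier results of these data known, so their counts describe and do not test. Against primed null BM-MSC 69.7% were called, 34.1% higher and 35.6% lower, and primed null against wild-type cells gave 39.5%, 19.5% higher and 20% lower, comparisons that share arrays with the one described. In all 14655 both arrays of one group lay above both of the other. A call with 2 arrays against 2 nearly requires this, so it adds no support to the calls. The same share over all autosomal genes is not given here. The net change was small, with a median of -0.07 and quartiles of -0.65 and 0.54. The median was -0.104 without the first tumor line array, -0.0223 without the second and -0.0284 in the authors' value table. Centring arrays on their median instead of the 75th percentile moved every change up by 0.13, which turned the sign of this median (0.057) and made 55.5% of calls higher, against 48.0%. Among the 19270 genes that were measured in both groups, 2312 were called at least 2-fold higher and 2414 at least 2-fold lower. A further 675 genes were well above background on no wild-type array, 1131 on no tumor line array and 435 on neither, and for these the fold is a bound or is not given. Of the 435 genes, 76 were still called, 33 higher and 43 lower, and they are part of the counts. Correcting the background with an added offset reduced the number of at least 2-fold calls, all autosomal genes included, to 3849, against 6094.

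**Figure D2:**
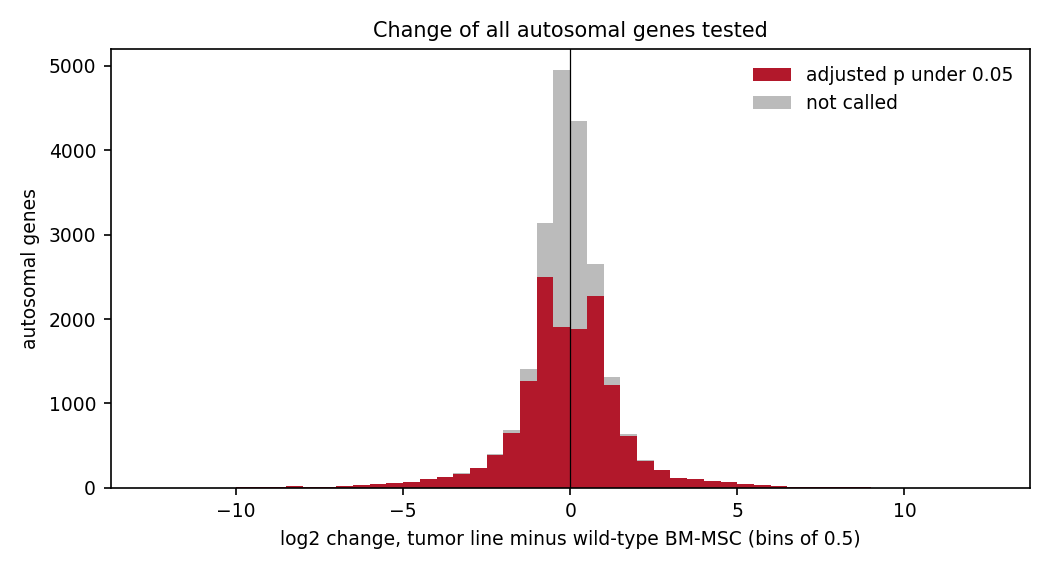
Number of autosomal genes by log2 change of the tumor line from wild-type BM-MSC, in bins of 0.5, with called genes in red and the others in grey stacked on them. The distribution of all 21511 genes is centred close to 0, with a median of -0.07, and has long tails on both sides.

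E2F factors and the DNA replication genes they control mostly rose. The list of pocket proteins and E2F factors leaves out Rb1, a pocket protein that fell and is counted with the targeted genes. Of the 11 members tested, 10 rose and 0 fell (median 0.68, against -0.07 for all autosomal genes). E2f7 was the one that was not called (0.10 ± 0.09, with another probe at -0.73). E2f8, a repressor of the family that E2F itself switches on, stood at 1.77 and 1.70 in the tumor line and -0.80 and -0.94 in wild-type cells (2.60 ± 0.07, adjusted p = 3.50e-07). E2f2, an activator, stood at 0.61 and 0.67 in the tumor line and -1.05 and -1.26 in wild-type cells (1.80 ± 0.11). Of 39 replication genes 36 rose and 1 fell, with a median of 1.37. Cdt1, which loads the replicative helicase at origins, stood at 4.86 and 4.86 in the tumor line and 2.57 and 2.56 in wild-type cells (2.29 ± 0.05, adjusted p = 1.93e-07). Mcm5, a subunit of that helicase, rose by 2.09 ± 0.08, and the polymerase subunits Pold1 and Pole rose by 2.05 ± 0.06 and 2.02 ± 0.07. The exception was Rrm1, the large subunit of ribonucleotide reductase, at 4.21 and 4.24 in the tumor line and 4.49 and 4.46 in wild-type cells (-0.24 ± 0.05), a call that was lost with arrays centred on the median. Pcna (0.11 ± 0.06) and Rrm2 (-0.09 ± 0.07) were not called.

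Mitosis genes were mostly higher too. Of 31 tested, 30 rose and 1 fell, with a median of 1.26. Top2a, the topoisomerase that untangles chromosomes, stood at 4.36 and 4.41 in the tumor line and 1.62 and 1.51 in wild-type cells (2.81 ± 0.11, adjusted p = 1.55e-06). The kinase Nek2 (2.56 ± 0.11), the kinesin Cenpe (2.56 ± 0.10) and the centromeric histone Cenpa (2.04 ± 0.07) rose by comparable amounts. Cdk1, the mitotic kinase, was the member called lower by its brightest probe (-0.60 ± 0.14) while another of its probes changed by 0.90, so its direction is not settled here. Of 30 DNA repair and damage checkpoint genes 24 rose and 1 fell (median 0.91), with Blm, a helicase, rising by 1.70 ± 0.10, and Fancd2 and Fanci of the Fanconi pathway by 1.98 ± 0.12 and 1.67 ± 0.12. Both groups were collected in exponential growth by the labels, and a difference in their rate of division was not tested. In primed null cells, which share the wild-type arrays as their reference, 32 of the replication genes and 23 of the mitosis genes were called higher, against 19.5% of all autosomal genes, and the medians were 0.56 and 0.38.

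The promoters of these lists, for the 31 of 40 replication, 10 of 12 pocket protein and E2F and 27 of 32 mitosis genes that matched by symbol, were read in RefSeq's mouse sequences (GRCm38.p6), from 250 bases before to 50 after each start site. An E2F-type motif (the letters TTCCCGC, the letters TTGGCGC or the letters TTCGCGC, on either strand) stood in 21 of 36 replication promoters (58.3%) and 7 of 14 promoters of pocket proteins and E2F factors (50%), against 3 of 29 mitosis promoters (10.3%) and 8.07% of all 32851 promoters. A CHR-type motif (TTTGAA or TTCGAA on either strand), the element through which mitotic genes are held down outside division, stood in 22 of 29 mitosis promoters (75.9%), 7 of 36 replication promoters (19.4%) and 19.2% of all promoters. A match in these windows is a description of the letters and not evidence of binding. The promoters of 3 genes of the first kind and 1 of the second are shown because their genes were among the largest rises of their lists, with every match of the motif named in capitals. They are E2f8 on chr7:48881547-48881846 (minus strand), Cdt1 on chr8:122567765-122568064 (plus strand) and Mcm5 on chr8:75109259-75109558 (plus strand), with E2F-type motifs, and Top2a on chr11:99024140-99024439 (minus strand), with CHR-type motifs.
E2f8: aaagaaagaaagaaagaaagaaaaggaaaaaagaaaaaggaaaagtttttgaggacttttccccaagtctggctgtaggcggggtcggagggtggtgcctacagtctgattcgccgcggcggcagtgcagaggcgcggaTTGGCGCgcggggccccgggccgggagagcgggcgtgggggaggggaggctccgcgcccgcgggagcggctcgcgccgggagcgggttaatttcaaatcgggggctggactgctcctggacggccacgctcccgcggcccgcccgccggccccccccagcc
Cdt1: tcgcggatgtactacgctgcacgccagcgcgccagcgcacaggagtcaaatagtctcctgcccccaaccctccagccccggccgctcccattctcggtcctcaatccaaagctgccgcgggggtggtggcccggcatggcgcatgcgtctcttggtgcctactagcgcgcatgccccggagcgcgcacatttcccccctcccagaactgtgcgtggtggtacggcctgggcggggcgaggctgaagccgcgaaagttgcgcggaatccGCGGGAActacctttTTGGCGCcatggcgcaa
Mcm5: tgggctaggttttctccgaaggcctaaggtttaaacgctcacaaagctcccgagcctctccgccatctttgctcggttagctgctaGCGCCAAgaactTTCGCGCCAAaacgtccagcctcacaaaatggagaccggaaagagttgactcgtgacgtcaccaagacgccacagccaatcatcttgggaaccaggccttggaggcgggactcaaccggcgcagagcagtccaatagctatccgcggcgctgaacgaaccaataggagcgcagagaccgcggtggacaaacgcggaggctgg
Top2a: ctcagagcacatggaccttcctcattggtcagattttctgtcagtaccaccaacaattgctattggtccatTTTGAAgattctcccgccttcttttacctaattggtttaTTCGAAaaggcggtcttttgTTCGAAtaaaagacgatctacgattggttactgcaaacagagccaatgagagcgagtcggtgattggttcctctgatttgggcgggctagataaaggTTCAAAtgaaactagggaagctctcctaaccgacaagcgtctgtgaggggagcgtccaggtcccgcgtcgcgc
E2f8 holds 1 match, 111 bases before the start site, Cdt1 holds 2 and Mcm5 holds 3, while Top2a holds 4 CHR-type matches.

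Targets of p53 were mostly lower. Of 28 tested, 20 fell and 4 rose, with a median of -1.01. Besides Cdkn1a, the largest falls included Ephx1, an epoxide hydrolase, at 3.40 and 3.45 in the tumor line and 7.75 and 7.66 in wild-type cells (-4.28 ± 0.07, adjusted p = 6.84e-08), the antiproliferative Btg2 (-3.06 ± 0.09) and cyclin G1 (Ccng1, -2.90 ± 0.07). The 4 that rose were Gadd45a, a DNA damage response gene, at 2.68 and 2.76 in the tumor line and -0.49 and -0.35 in wild-type cells (3.14 ± 0.07), the polo-like kinases Plk2 (1.12 ± 0.10) and Plk3 (0.89 ± 0.07), and the stress gene Ddit4 (0.66 ± 0.05). In primed null cells 21 of these targets were called lower and 3 higher, against 20% and 19.5% of all autosomal genes. Of 15 BCL2 family genes 9 fell and 4 rose. Those that fell included both death-promoting members, Bax (-1.47 ± 0.06) and Bid (-1.55 ± 0.05), and protective ones, Bcl2 (-1.68 ± 0.10) and Bcl2l1 (-1.42 ± 0.06). The 4 that rose were also of both kinds. They were the protectors Mcl1 (0.40 ± 0.06) and Bcl2a1d (at least 7.55-fold higher), and the death-promoting Bmf (1.11 ± 0.12) and Bik (at least 1.39-fold higher).

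**Figure D3:**
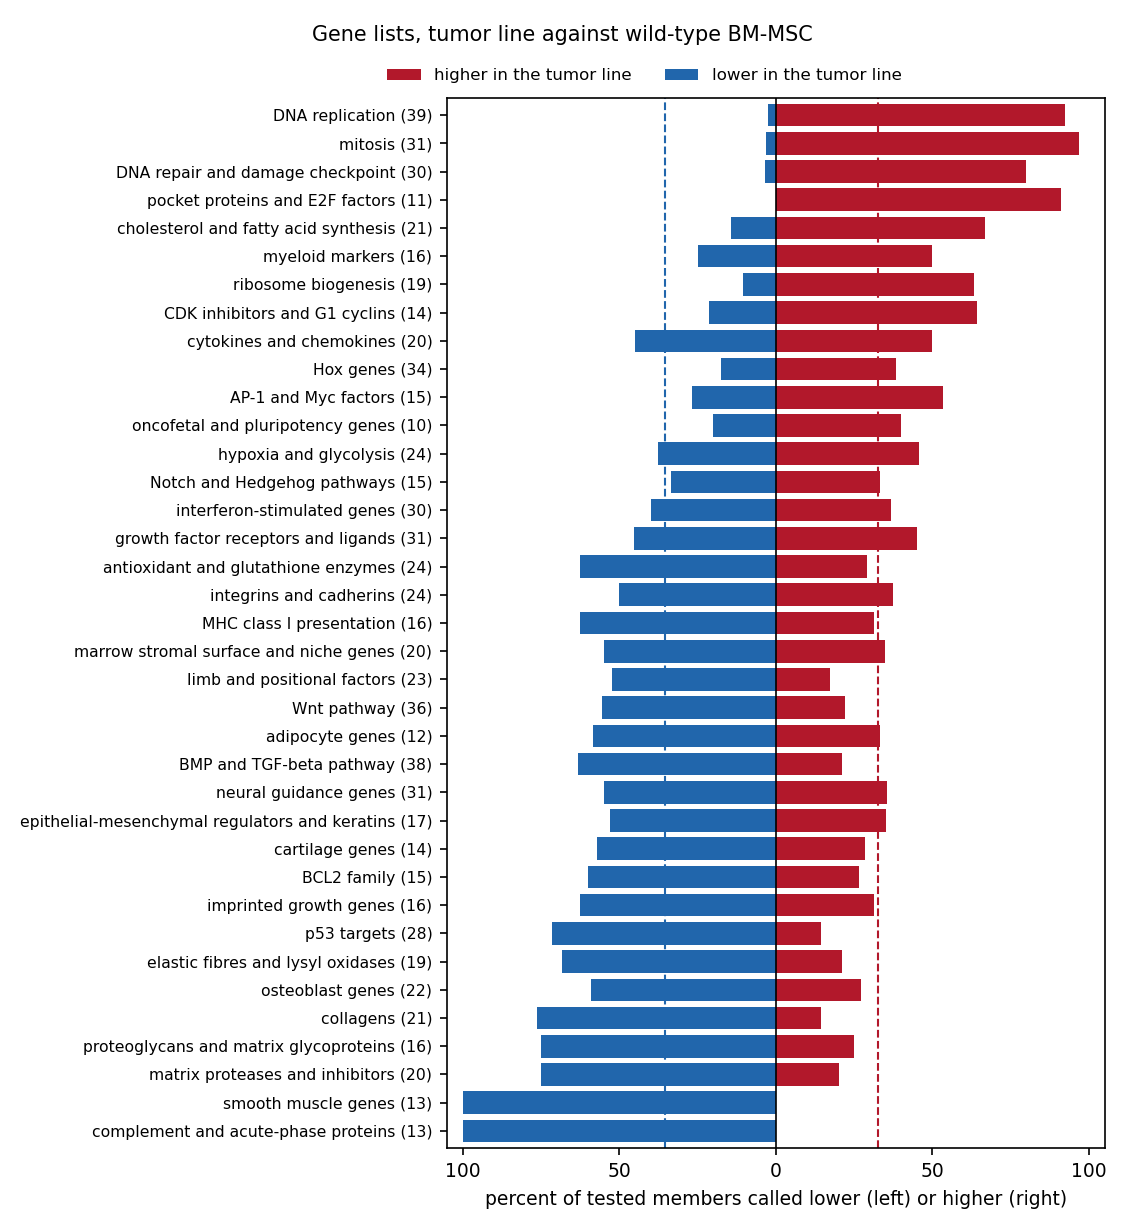
Percent of the tested autosomal members of each gene list called higher (red, right) or lower (blue, left) in the tumor line against wild-type BM-MSC, with the number tested in brackets and lists ordered by their median change; dashed lines mark the shares over all autosomal genes, 32.7% higher and 35.4% lower. Replication, mitosis, repair and E2F lists lie at the top, and smooth muscle and complement lists, whose tested members all fell, at the bottom.

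The largest rises included secreted and matrix proteins. Lumican (Lum), a proteoglycan that spaces collagen fibrils, stood at 5.25 and 5.23 in the tumor line, 2.79 and 2.76 in primed null cells and -5.34 and -4.94 in wild-type cells, a higher level in the tumor line (10.38 ± 0.13, adjusted p = 3.36e-08). Aggrecan (Acan), the large proteoglycan of cartilage, stood at 4.77 and 4.76 in the tumor line, -5.01 and -4.90 in primed null cells and -5.85 and -5.38 in wild-type cells (10.38 ± 0.16, adjusted p = 6.38e-08). Aggrecan was thus high in the tumor line alone of the 3 marrow-derived groups, whereas lumican was also above wild type in primed null cells. Rspo1, a secreted enhancer of Wnt signalling, stood at 4.12 and 4.07 in the tumor line, 0.23 and 0.21 in primed null cells and -6.03 and -5.25 in wild-type cells (9.74 ± 0.40, adjusted p = 2.32e-06). Bmp2, an inducer of bone, stood at 2.80 and 2.78 in the tumor line, 1.54 and 1.64 in primed null cells and -5.62 and -4.62 in wild-type cells (7.91 ± 0.34, adjusted p = 2.74e-06). For these 4 genes only 1 of the 2 wild-type arrays was well above background, so that the size of the rise depends on a level near the detection limit. Decorin (Dcn), a proteoglycan related to lumican, rose to 8.56 and 8.58 in the tumor line, against 1.98 and 2.15 in wild-type cells (6.51 ± 0.07). Dlk1, an imprinted inhibitor of differentiation, reached 6.66 and 6.70 in the tumor line and stood at -3.00 and -2.84 in primed null and -0.45 and -0.55 in wild-type cells (7.18 ± 0.07, adjusted p = 2.05e-08). Others of the 15 largest rises were the retinoic acid binding protein Crabp1 (6.88 ± 0.20), uridine phosphorylase Upp1 (7.17 ± 0.32), the adaptor Fyb (7.51 ± 0.20, 1 of 2 wild-type arrays well above background), the exchange factor Ngef (6.94 ± 0.09), the guidance molecule Sema7a (6.38 ± 0.10) and the gelatinase Mmp9 (6.31 ± 0.20, with the same limit). The largest adjusted p among the 15 rises and 15 falls was 2.19e-05.

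The largest falls included contractile, signalling and acute-phase genes. Actg2, the enteric smooth muscle actin, fell to -4.36 and -4.52 in the tumor line, against 7.55 and 7.51 in primed null and 6.28 and 6.10 in wild-type cells (-10.63 ± 0.08, adjusted p = 1.09e-08). Gas6, a ligand of the TAM receptors, fell to -1.90 and -1.81, against 7.34 and 7.30 in wild-type cells (-9.17 ± 0.05, adjusted p = 8.46e-09), and primed null cells stood at 7.30 and 7.24. Haptoglobin (Hp) stood at -4.99 and -5.43 in the tumor line, 1.48 and 1.36 in primed null and 4.73 and 4.55 in wild-type cells (-9.85 ± 0.15, 1 of 2 tumor line arrays well above background). In each of these 3 genes both tumor line arrays lay far below the other marrow-derived arrays. Also among the 15 were Cyp1b1, a cytochrome P450 (-9.92 ± 0.20, with the same limit as Hp), Anxa8, an annexin (-9.22 ± 0.07), Sfrp1, a Wnt antagonist (-8.88 ± 0.09), Rspo2, a Wnt enhancer (-8.85 ± 0.25), Mgll, which degrades monoacylglycerols (-8.38 ± 0.06), Mgst1, a glutathione transferase (-8.33 ± 0.12), and Ptgis, which makes prostacyclin (-8.13 ± 0.14, with another probe at -0.57).

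**Figure D4:**
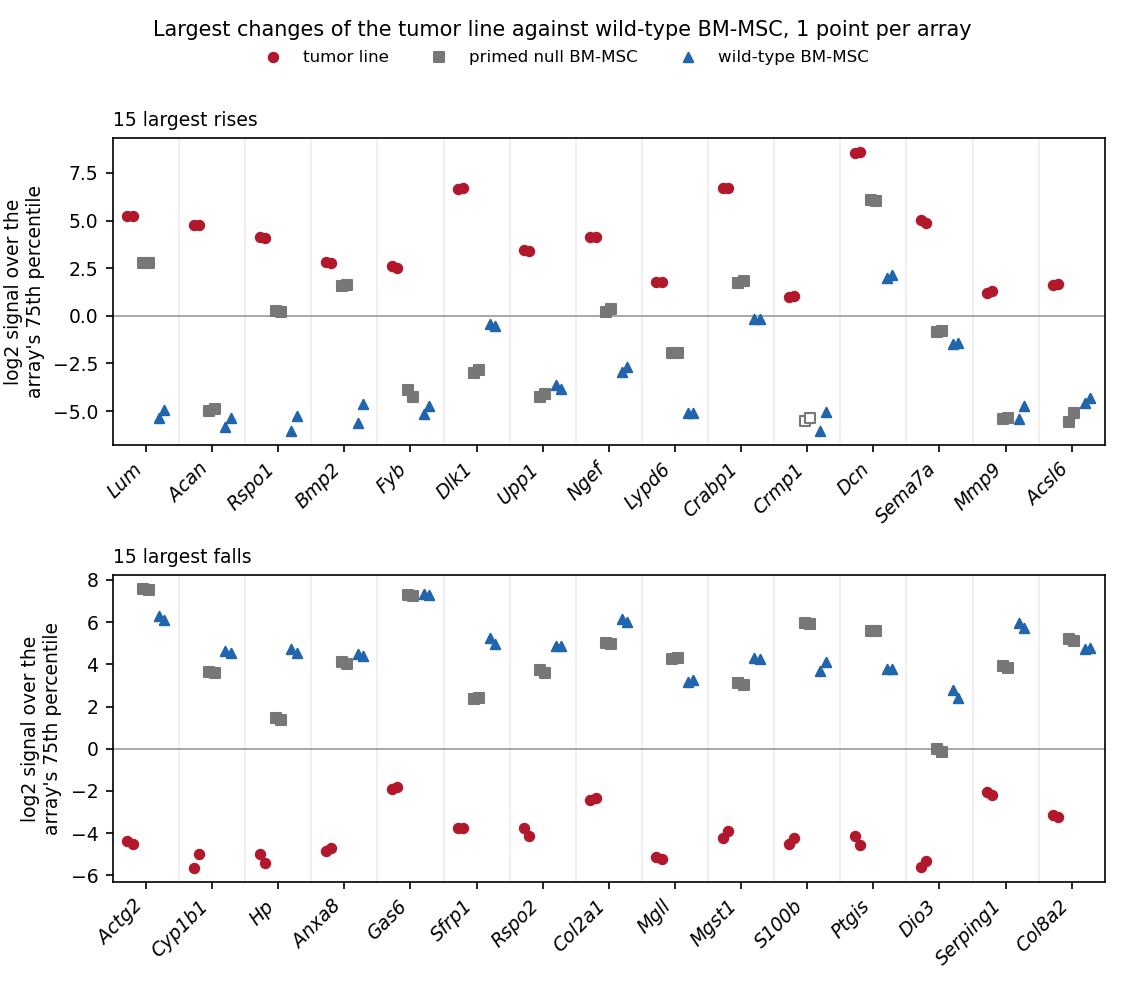
Log2 signal over the array's 75th percentile of the 15 autosomal genes with the largest rises (top) and the 15 with the largest falls (bottom), with 1 point per array for the tumor line (circles), primed null BM-MSC (squares) and wild-type BM-MSC (triangles). The 30 genes were chosen by the size of their change and by arrays that do not overlap, so their separation follows from the choice. The smallest difference of group means among the rises is 6.09. Primed null cells lie nearer to wild type than to the tumor line for all 15 falls.

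Other genes were detected in the tumor line or in wild-type cells but not in both. Well above background on both tumor line arrays and on neither wild-type array were 614 autosomal genes, 42 of which were also so on both primed null arrays. Of the 390 among them that have a gene symbol and not only a clone or model name, 8 are named by the size of their bound. Pla2g7, which hydrolyses platelet-activating factor, stood at 3.04 and 3.06 in the tumor line and -5.57 and -6.31 in wild-type cells, at least 409-fold higher. The homeobox gene Lhx8 was at least 185-fold higher and its relative Hoxb7 at least 118-fold, and Padi2, which converts arginine to citrulline, at least 93.8-fold. Scin and Padi2 were well above background on both primed null arrays too, at -3.47 and -3.03 for Scin and -4.46 and -4.43 for Padi2. The actin-severing Scin, Plekhb1, Elapor2 and the carbonic anhydrase Car6 completed the 8, at least 82.6-fold to 97.9-fold higher. In the other direction 846 genes were well above background on both wild-type arrays and on neither tumor line array, 464 of them with a gene symbol. Primed null cells had 501 of the 846 well above background on both arrays, including all 8 named here. Ctla2a stood at -6.84 and -5.98 in the tumor line, 5.70 and 5.68 in primed null and 5.54 and 5.58 in wild-type cells, at least 2181-fold lower. Ctla2b, a near-identical protease inhibitor whose probe may read the same RNA, stood at -5.80 and -6.57 in the tumor line and 4.02 and 3.90 in wild-type cells, at least 721-fold lower. The small heat shock protein Hspb8 was at least 498-fold lower, the interleukin 1 antagonist Il1rn at least 310.4-fold and the cadherin Cdh13 at least 281-fold. Speer4b and Shisal1 were lower as well. Aoc3 was at least 312-fold lower by the probe used, but its other probe changed by 0.20.

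The smooth muscle genes were lower as a whole list. All 13 tested fell, with a median of -3.13, against -0.07 over all autosomal genes. Besides Actg2, calponin (Cnn1) stood at -0.52 and -0.44 in the tumor line and 6.35 and 6.14 in wild-type cells (-6.73 ± 0.10, adjusted p = 5.84e-08), transgelin (Tagln) at 2.58 and 2.50 in the tumor line and 8.80 and 8.58 in wild-type cells (-6.15 ± 0.09), and the smooth muscle actin Acta2 at 3.36 and 3.41 in the tumor line and 9.29 and 9.06 in wild-type cells (-5.79 ± 0.09). The actin of skeletal muscle, Acta1, was at least 37.7-fold lower. Skeletal muscle regulators such as Myod1 and Myog were not detected on both arrays of any group.

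Matrix genes fell more often than they rose. Of 21 collagen genes 16 fell and 3 rose (median -1.22, or -1.28 with genes at their detection bound), of 19 elastic fibre and lysyl oxidase genes 13 fell and 4 rose (median -1.19), and of 20 matrix proteases and inhibitors 15 fell and 4 rose (median -1.72, or -1.80 at the bound). Col12a1, which coats collagen fibrils, stood at -1.80 and -1.73 in the tumor line and 3.46 and 3.44 in wild-type cells (-5.21 ± 0.05, adjusted p = 1.84e-08), and Col8a2, of sheet-forming collagen, at -3.15 and -3.23 in the tumor line and 4.74 and 4.79 in wild-type cells (-7.95 ± 0.18). The fibrillar Col1a1 fell only by 0.51 ± 0.10 and Col1a2 was not called (-0.09 ± 0.14). Col18a1 (1.60 ± 0.04) and Col16a1 (1.15 ± 0.04) rose. The microfibril protein Mfap5 stood at -2.38 and -2.38 in the tumor line and 5.11 and 5.08 in wild-type cells (-7.47 ± 0.05, adjusted p = 8.46e-09), fibrillin 1 (Fbn1) changed by -3.50 ± 0.05, and the crosslinking enzyme Lox by -3.73 ± 0.07, while Ltbp1 (2.21 ± 0.06) and Loxl3 (1.75 ± 0.04) rose. Among proteases, the collagenase Mmp13 stood at -3.63 and -3.33 in the tumor line and 3.48 and 3.62 in wild-type cells (-7.04 ± 0.14), opposite to Mmp9. Of 16 proteoglycans and matrix glycoproteins 12 fell and 4 rose. Thrombospondin 1 (Thbs1, -4.36 ± 0.08), fibromodulin (Fmod, -4.30 ± 0.08) and asporin (Aspn, -4.63 ± 0.07) fell, although the last 2 belong to the same leucine-rich family as lumican and decorin.

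Of the differentiation lists, bone genes divided. Of 22 osteoblast genes 13 fell and 6 rose, with a median of -1.21 (-1.73 at the bound) that was -0.31 when genes had to be well above background on all 10 arrays. Bone sialoprotein (Ibsp) stood at -4.61 and -4.21 in the tumor line, 5.71 and 5.67 in primed null and 2.35 and 2.38 in wild-type cells (-6.77 ± 0.50, adjusted p = 3.24e-05). Osteocalcin, read by the near-identical Bglap and Bglap2, stood at -3.78 and -3.98 in the tumor line, 5.71 and 5.66 in primed null and 2.19 and 2.37 in wild-type cells by the Bglap2 probe (-6.17 ± 0.14). Alkaline phosphatase (Alpl) was at least 43.2-fold lower. These bone genes were lowest in the tumor line and highest in the primed null cells. Osteopontin (Spp1), a matrix protein of bone and tumors, rose by 2.82 ± 0.24, and so did the mineralization regulators Ank (1.67 ± 0.07) and Enpp1 (1.32 ± 0.08). Runx2, the master regulator of bone formation, was not called (-0.08 ± 0.16).

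Cartilage genes also went both ways, with 4 higher and 8 lower of 14. Beside aggrecan, the link protein Hapln1, which ties it to hyaluronan, rose to 1.55 and 1.68, against -4.08 and -4.03 in wild-type cells (5.67 ± 0.06, adjusted p = 2.05e-08), and the regulator Sox9 rose by 0.85 ± 0.07. The main cartilage collagen, Col2a1, fell to -2.44 and -2.36, against 5.02 and 4.98 in primed null and 6.16 and 6.01 in wild-type cells (-8.49 ± 0.10, adjusted p = 2.87e-08). Comp, another cartilage matrix protein, changed by -3.60 ± 0.41. Of 12 adipocyte genes 7 fell and 4 rose, and only 4 fell without the second tumor line array or the first wild-type array. Pparg, the master regulator of fat cells, stood at -1.20 and -1.14 in the tumor line and 2.74 and 2.80 in wild-type cells (-3.94 ± 0.07, adjusted p = 9.46e-08), and Cebpa changed by -2.36 ± 0.26. The lipid droplet protein Plin2 rose (1.17 ± 0.04).

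Wnt and BMP pathway genes were more often lower. Of 36 Wnt genes 20 fell and 8 rose, a median of -0.45 (-0.59 at the bound), and both directions occurred among antagonists and enhancers. Among the antagonists, Wif1 was at least 139.9-fold lower and Dkk2 at least 34.8-fold higher. Rspo1 and Rspo2, which enhance Wnt signalling through Lgr receptors, changed in opposite directions, and the receptor Lgr5 stood at -4.52 and -5.36 in the tumor line and 1.81 and 2.03 in wild-type cells (-6.86 ± 0.32, adjusted p = 3.67e-06). The transcription factors Lef1 (3.74 ± 0.25) and Tcf7 (2.89 ± 0.35) rose, each with 1 of 2 wild-type arrays well above background. Of 38 BMP and TGF-beta genes 24 fell and 8 rose, a median of -0.59 (-0.73 at the bound). The ligands moved in opposite directions, as Bmp4 fell to -0.09 and -0.12 in the tumor line, against 6.88 and 6.83 in wild-type cells (-6.96 ± 0.10, adjusted p = 4.43e-08), while Bmp2 rose. The inhibitory Smad6 (-4.83 ± 0.08) and the activin antagonist follistatin (Fst, -4.75 ± 0.42) fell, and Tgfbi, a matrix protein induced by TGF-beta, rose to 7.53 and 7.49, against 2.88 and 2.89 in wild-type cells (4.63 ± 0.07). Of 15 Notch and Hedgehog genes 5 rose and 5 fell, with Gli1, a transcription factor and target of Hedgehog signalling, at -0.95 and -0.92 in the tumor line and -4.35 and -4.52 in wild-type cells (3.50 ± 0.10), and Notch4 (4.55 ± 0.08) among the rises and Notch3 (-2.47 ± 0.12) and its ligand Jag1 (-2.27 ± 0.06) among the falls.

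Growth factor genes were called equally often in each direction, 14 and 14 of 31. Igf1 fell to -3.76 and -3.89 in the tumor line, against 2.94 and 2.93 in wild-type cells (-6.76 ± 0.08, adjusted p = 2.36e-08), its 5 probes spanning -9.11 to -0.62, and the binding protein Igfbp5 was at least 163-fold lower, while Igfbp2 (2.96 ± 0.14) and Igfbp3 (2.86 ± 0.07) rose. The receptor Met rose to 0.62 and 0.53, against -1.93 and -1.97 in wild-type cells (2.52 ± 0.06), and the ligand Areg was at least 9.98-fold higher. Among 15 AP-1 and Myc factors 8 rose and 4 fell. Jun stood at 5.85 and 5.71 in the tumor line and 3.78 and 3.75 in wild-type cells (2.01 ± 0.09) and its partner Fosl1 rose by 2.21 ± 0.15, while Fos itself changed by -1.59 ± 0.09. Mycn was at least 3.95-fold higher.

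Complement and acute-phase genes formed the other list in which all tested members fell, 13 of 13, with a median of -4.81 (-4.24 at the bound) that was -2.81 with the offset background. Apart from haptoglobin, the complement inhibitor Serping1 stood at -2.05 and -2.17 in the tumor line and 5.98 and 5.74 in wild-type cells (-7.97 ± 0.10, adjusted p = 3.00e-08), and pentraxin 3 (Ptx3) at -2.48 and -2.28 in the tumor line and 5.47 and 5.28 in wild-type cells (-7.75 ± 0.16). Cytokines and chemokines split into 10 higher and 9 lower of 20. Ccl2, which attracts monocytes, fell to 1.10 and 1.14 in the tumor line, against 5.12 and 5.01 in wild-type cells (-3.94 ± 0.06). Ccl7, which does so too, fell to -0.14 and -0.08 in the tumor line, against 5.00 and 4.87 in wild-type cells (-5.04 ± 0.06), and Il6 was at least 25.4-fold lower. Ccl5, which attracts T cells, rose to 4.94 and 4.92, against 1.07 and 1.00 in wild-type cells (3.89 ± 0.09, adjusted p = 2.69e-07). Cxcl12, the chemokine that retains blood stem cells in the marrow, fell to 2.27 and 2.38, against 6.80 and 6.75 in primed null and 8.24 and 8.14 in wild-type cells (-5.87 ± 0.08, adjusted p = 4.43e-08).

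The 30 interferon-stimulated genes gave 11 higher and 12 lower, shares close to those of all autosomal genes. The chemokine Cxcl10 rose to 1.77 and 1.81, against -2.63 and -2.59 in wild-type cells (4.40 ± 0.10), and the antiviral Ifitm1 fell to -3.86 and -4.36, against 1.29 and 1.32 in wild-type cells (-5.42 ± 0.16). Of 16 genes of MHC class I presentation 10 fell and 5 rose. The class I chain H2-K1 (1.22 ± 0.04) and the class I activator Nlrc5 (1.61 ± 0.17) were higher, and the immunoproteasome subunit Psmb9 (-1.78 ± 0.06) and the peptide transporter Tap1 (-1.42 ± 0.12) lower. A probe of one class I chain may read its near-identical relatives, and this was not tested.

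Hox and other positional genes went both ways. Of 34 Hox genes 13 rose and 6 fell. Those of the middle Hoxb cluster were among the largest rises, with Hoxb7 at 1.15 and 1.37 in the tumor line and -7.28 and -7.33 in wild-type cells, and Hoxb8 at least 20.9-fold and Hoxb5 at least 11.2-fold higher. Hoxc13 was at least 37.2-fold lower and Hoxc11 fell by 2.67 ± 0.12. Among 23 limb and positional factors 12 fell and 4 rose. Alx1 was at least 33.8-fold higher and Pax9 (2.69 ± 0.07) and Tbx3 (2.25 ± 0.05) rose, while the limb factors Prrx2 (-3.22 ± 0.07) and Irx3 (-3.82 ± 0.19) fell. Imprinted growth genes gave 5 higher and 10 lower of 16. Meg3, the maternal RNA of the Dlk1 cluster, stood at 6.00 and 5.96 in the tumor line and 3.02 and 3.26 in wild-type cells (2.84 ± 0.17, adjusted p = 1.22e-05) and rose with Dlk1, while Dio3 of the same cluster fell to -5.62 and -5.30, against 2.78 and 2.41 in wild-type cells (-8.06 ± 0.17, 1 of 2 tumor line arrays well above background). H19 fell to 0.45 and 0.50, against 7.90 and 7.91 in primed null and 5.71 and 5.99 in wild-type cells (-5.38 ± 0.09), and Mest was at least 76.0-fold lower. Among the 10 oncofetal and pluripotency genes tested 4 rose and 2 fell. The 2 that fell were the pluripotency factors Klf4 (-1.29 ± 0.06) and Nanog (-0.93 ± 0.11). The chromatin protein Hmga1 rose to 8.85 and 8.73, against 4.91 and 4.77 in wild-type cells (3.95 ± 0.06, adjusted p = 7.35e-08, its 3 probes spanning 1.24 to 5.18), Hmga2 by 2.09 ± 0.06 and the RNA-binding Igf2bp1 by 4.61 ± 0.16.

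Surface and adhesion genes went both ways. Of 20 marrow stromal surface and niche genes 11 fell and 7 rose. Endoglin (Eng, CD105) fell to -2.17 and -2.07, against 3.05 and 2.90 in wild-type cells (-5.10 ± 0.07, adjusted p = 4.61e-08), and Thy1 (CD90) by 1.72 ± 0.08. Nt5e (CD73) rose to 2.32 and 2.45, against -2.52 and -2.12 in wild-type cells (4.71 ± 0.19), and the filament Nes to 3.74 and 3.71, against -1.93 and -1.85 in wild-type cells (5.62 ± 0.06, adjusted p = 2.36e-08). Of 24 integrins and cadherins 9 rose and 12 fell, with the laminin receptors Itga3 (4.35 ± 0.10) and Itga6 (2.87 ± 0.08, with another probe at 0.02) higher and the collagen receptors Itga11 (-3.17 ± 0.06) and Itga1 (-2.89 ± 0.07) lower. Krt18, a keratin of simple epithelia, rose to 1.37 and 1.42, against 1.14 and 1.15 in primed null and -4.70 and -3.77 in wild-type cells (5.63 ± 0.29).

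Cholesterol and ribosome biogenesis genes were more often higher and antioxidant genes more often lower. Of 21 cholesterol and fatty acid synthesis genes 14 rose and 3 fell (median 0.48), the number that fell being 1 without either tumor line array or the first wild-type array and 0 with arrays centred on the median. The rises included the fatty acid synthesis enzymes Fasn (1.74 ± 0.07) and Acaca (1.55 ± 0.04) and the isoprenoid enzyme Fdps (1.52 ± 0.06). Of 24 antioxidant and glutathione genes 15 fell and 7 rose. The cystine transporter Slc7a11 was at least 16.7-fold higher, while the secreted peroxidase Gpx3 fell to -1.38 and -1.14, against 4.18 and 4.26 in wild-type cells (-5.47 ± 0.08, adjusted p = 6.24e-08), and Sod3 changed by -3.84 ± 0.08. Hypoxia and glycolysis genes gave 11 higher and 9 lower of 24, with Egln3 (4.77 ± 0.14) and Vegfa (1.52 ± 0.06) higher and Adm (-2.53 ± 0.09) lower. Of 19 ribosome biogenesis genes 12 rose and 2 fell (median 0.34), among them Npm1, which rose to 7.67 and 7.63, against 6.24 and 6.16 in wild-type cells (1.45 ± 0.05). The number that fell was 1 without the first tumor line array or the first wild-type array and 6 when the probes of a gene were averaged.

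Markers of other cell types were read because a tumor grown in a mouse also holds host cells. Of 16 tested myeloid genes 8 rose and 4 fell, with a median of 0.45 that was -0.46 over genes well above background on all 10 arrays. Tyrobp, an adaptor of myeloid receptors, stood at -1.92 and -1.95 in the tumor line and -7.45 and -7.87 in wild-type cells (at least 12.9-fold higher). Itgax, C1qa and C1qc were at least 6.09-fold, 8.54-fold and 5.10-fold higher, at tumor line levels below -2. The pan-leukocyte Ptprc (-0.16 ± 0.20) and the macrophage receptor Adgre1 (-0.46 ± 0.18, with another probe at 2.59) were not called, Spi1, Mrc1 and Cd86 were not tested for want of signal, and Csf1r (-1.10 ± 0.07) and Itgam (-1.74 ± 0.12, with another probe at -0.05) fell. The summed signal of the list, on the same log2 scale, was 3.91 to 3.99 in the tumor line and 4.89 to 4.90 in wild-type cells. It was 1.86 to 2.10 in the tumor line and 2.07 to 2.14 in wild-type cells for endothelial markers, 2.12 to 2.29 in the tumor line and 1.74 to 1.80 in wild-type cells for lymphoid and erythroid markers, and 2.68 to 2.96 in the tumor line and 4.92 to 5.06 in wild-type cells for neural and Schwann markers. The part of other cells in these levels was not tested. Among lymphoid and erythroid genes the globin Hba-a1 rose to -0.07 and -0.17, against -5.11 and -4.62 in wild-type cells (4.75 ± 0.24, 1 of 2 wild-type arrays well above background), with 2 of 8 tested higher and 2 lower. Of 5 endothelial markers 1 rose (Flt1, 0.94 ± 0.11) and 2 were called lower (1 of them without the second tumor line array or the first wild-type array), while Pecam1 was not called (0.01 ± 0.31). Those called lower were Vwf (-1.78, with another probe at 0.93) and Kdr (-0.31, with another probe at 1.69), so their direction is not settled here. The glial calcium-binding protein S100b, also made by cartilage and fat cells, fell to -4.53 and -4.24, against 5.95 and 5.91 in primed null and 3.69 and 4.11 in wild-type cells (-8.29 ± 0.18).

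Sex-linked genes differed between the groups. Ddx3y, of the Y chromosome, stood at -7.43 and -7.63 in the tumor line, well above background on neither array, and at 2.00 and 1.89 in primed null and 1.66 and 1.64 in wild-type cells. The tumor line was at least 145-fold lower than wild type for Ddx3y, at least 27.2-fold for Eif2s3y and at least 4.71-fold for Uty. Xist, which coats and silences one X chromosome in female cells, stood at -1.37 and -1.62 in the tumor line, -4.20 and -4.55 in primed null and 2.05 and 2.20 in wild-type cells (-3.62 ± 0.19, adjusted p = 6.80e-06), so wild-type BM-MSC held both Xist and Y-linked RNA. The sex and number of the donor mice are not given in the labels, and a difference between donors cannot be told apart from the other differences between the groups.

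The net change differed between chromosomes, a comparison with no test of its own here. The median change of the 1135 genes tested on chromosome 3 was 0.70, which is 0.77 above the median of all autosomes, and 59.4% of them were called higher and 15.9% lower, against 32.7% and 35.4% over all autosomes. Its tumor line arrays lay at 0.72 and 0.67 above the wild-type mean by the chromosome's median, and the 2 wild-type arrays differed from their own mean by 0.01. In 8 windows of 20 Mb along chromosome 3 the median was above that of all autosomes in every one, between 0.47 and 0.92. The lowest median was that of chromosome 2, at -0.45, with 17.4% of 1683 genes higher and 54.5% lower, and all 10 of its windows lay below the median of all autosomes, between -0.65 and -0.18. Chromosomes 10 (-0.37) and 9 (-0.36) were next, with 6 of 7 and 7 of 7 windows below. In primed null cells against the same wild-type arrays the medians were 0.06 for chromosome 3 and -0.02 for chromosome 2. The offset background reduced the distance of chromosome 3 from all autosomes to 0.49, and keeping all dim probes reduced it to 0.32, while that of chromosome 2 was -0.22 and -0.21. Of the 42 genes of the lists above that lie on chromosome 3, 20 were higher and 16 lower, with a median of 0.10. DNA copy number was not measured in these files.

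**Figure D5:**
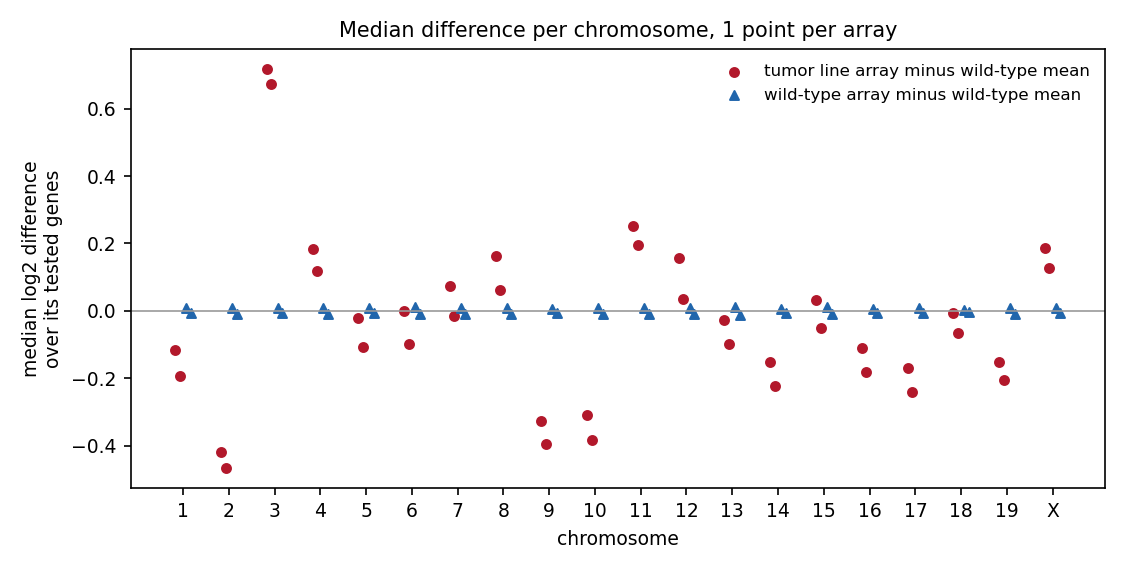
Median log2 difference over the genes tested on each chromosome, for each tumor line array (circles) and each wild-type BM-MSC array (triangles) from the wild-type mean; the 2 wild-type points of a chromosome mirror each other by construction. Chromosome 3 stands highest, at 0.72 and 0.67 in the 2 tumor line arrays, and chromosomes 2, 9 and 10 lowest.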

How the data were processed

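Each of the 10 samples was labelled with Cy3 and hybridised to a single-colour Agilent mouse array with 55681 distinct probes. The deposited scanner files hold the spot intensity written by Feature Extraction 10.7.3.1, with mm9 coordinates per the file headers, as a processed signal already corrected for background by that software. The deposited value table holds log2 values that the authors made from the same arrays and was used as an alternative only, correlating with the scanner values at r = 0.989 to 0.993. The submitters' processing notes name limma without a version, and the sources used here do not give its role.

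From the scanner intensities, log2 of the processed signal minus its 75th percentile over non-control spots was computed here on each array (483 to 621 scanner units). Spots of a probe were averaged without outliers, 37 probes that lacked a usable spot on any one array were left out, no spot was saturated, and the brightest probe stood for a gene. Probes were named through RefSeq accessions (27214), symbols (3578), synonyms (565), symbols in another letter case (41) or else by the file's own name (24246). A gene was tested if, in 1 or more of the 5 groups, both arrays showed its probe well above background. A linear model over all 10 arrays was fitted with limma 3.58.1 in R 4.3.3, with 5 residual degrees of freedom, and p-values were adjusted by Benjamini-Hochberg over 22596 genes. The median SE of a change was 0.09. Where a probe was well above background on neither array of a group, the fold was bounded by the higher of the lowest detected signal and the probe's own signal on each array. The number of arrays limits the precision.

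On simulated data with 22596 genes for this comparison, 36.0% of genes changed by 0.5, 80.0% of those changed by 1, 80.0% of those changed by 2 and 94.0% of those changed by 4 on the log2 scale were called, against 0.0848% of unchanged genes. Only 50 genes of each size were changed there and 22396 were not, whereas 68.1% of autosomal genes were called in the real data. The adjusted p depends on that share, so these percentages do not carry over to the real calls. The members and gene lists were chosen with earlier results of these data known. Named genes are the targeted and sex-linked genes, the 15 largest rises and 15 largest falls detected on at least 1 array of each group, up to 8 per direction detected on both arrays of 1 of the 2 groups and neither of the other, and up to 4 per direction of each list. Vim, Col1a1, Col1a2, Thy1, E2f7, Pcna, Rrm2, Runx2, Ptprc, Adgre1 and Pecam1 fall outside that rule and were named after their values were seen. Probe coordinates are those of the files (mm9), and promoter coordinates those of RefSeq's GRCm38.p6. The 14 other settings tried covered normalization, background, filters, probe choice, the arrays fitted and each array left out.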

Additional observations from a re-analysis of the deposited data

How the results depend on the processing

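The number of autosomal genes called lay between 12637 and 14707 over all alternatives, against 14655, the lowest being that of genes well above background on all 10 arrays (17139 tested). Leaving out 1 array gave 13108 to 13587, and the authors' value table gave 14707. The replicate numbers did not pair the cultures (r = -0.01 between the deviations of the tumor line and wild-type duplicates), and the replicate block gave 14440 calls. The median change was 0.057 with arrays centred on the median and -0.0011 with no filter on dim probes. The number changed at least 2-fold was 3849 with the normexp background and 4034 over genes well above background on all 10 arrays, against 6094. The Rb1 change lay between -3.89 and -3.40, and the fitted Trp53 change, not a bound, was -4.09 with the normexp background. Over genes well above background on all 10 arrays the median was 0.19 for imprinted genes and 0.12 for sex-linked genes, both the opposite sign. That filter leaves out genes dim on any array, among them 3 imprinted and 3 sex-linked genes dim in the tumor line. When the probes of a gene were averaged the change was 0.10 for Cdk1, 0.69 for Kdr and 0.61 for Map2, also the opposite sign, and 85 genes were called in the opposite direction. An alternative added after seeing the data, restricted to genes detected on both arrays of the tumor line or of wild-type BM-MSC, gave 14558 calls of 20586. For single genes 4536 of the recomputed values stayed on their side of the threshold with their direction and 62 missed it. Slide, line and group were not separable, and levels near the detection limit set the size of the largest folds.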

Other observations

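Neural guidance genes, which steer growing axons and also act in stromal and tumor cells, gave 11 higher and 17 lower of 31 tested in the tumor line against wild-type BM-MSC, and epithelial-mesenchymal regulators and keratins gave 6 higher and 9 lower of 17. Of 842 genes tested on the X chromosome 354 were called higher and 186 lower, with a median change of 0.17, against -0.07 over the autosomes.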
